A study of Mus musculus with 5 samples.

Results

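The cells described here are 216 sorted mesenchymal cells of mouse hindlimb muscle that are rich in Comp RNA and lie outside the tendon and mural classes. They were chosen by counts of unique molecular identifiers (UMIs, each standing for 1 captured transcript) in cells that showed 500 or more genes and whose mitochondrial share did not exceed 10%. Cells with a summed count of at least 5 for Tnmd, Fmod, Kera and Chad, which mark tendon cells, were left out, as were cells with at least 5 for the mural genes Rgs5, Kcnj8, Abcc9 and Higd1b. Of the 15077 cells that remained, a cell was taken when Bglap, Bglap2, Comp and Ostn together gave at least 3 UMIs and at least 4 of every 10000 UMIs. This took 1.43% of the cells that remained and 1.26% of the 17085 cells kept in the whole series, and the other 14861 cells served as the comparison.

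The series followed such cells through regeneration after notexin, a snake venom phospholipase that destroys muscle fibres. It holds 1 single-cell 3′ library for each of day 1, day 2, day 4 and day 14 after injury and 1 for quiescent, uninjured muscle. Every library came from C57BL/6J mice that, per the labels, carried Hic1CreERT2/CreERT2 and Rosa26LSLtdTomato/+, so that the inducible recombinase stood on both Hic1 alleles in the quiescent group too. All were given 2.5 mg of tamoxifen daily for 5 days at 8 weeks of age and left for a 10 day washout, which turns tdTomato on in cells that expressed Hic1 and in their descendants. The labels do not say how many animals stand behind a library, so days could not be tested against each other. Differences between cell classes were tested over the 5 libraries, which are also the 5 time points.

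Comp encodes cartilage oligomeric matrix protein, a pentameric thrombospondin that binds collagens and is best known from cartilage, tendon and ligament. Bglap and Bglap2 encode osteocalcin, a vitamin K-dependent protein that osteoblasts secrete into bone. Ostn encodes osteocrin, also called musclin, a small secreted peptide of bone and muscle that binds the natriuretic peptide clearance receptor. Gdf10, given as a further marker of these cells, encodes a secreted relative of BMP3 in the TGF-beta superfamily. In GRCm38 coordinates with the GENCODE M21 annotation, Comp lies at 8:70373558-70382066 on the plus strand and Ostn at 16:27307489-27351212 on the plus strand. Bglap at 3:88383501-88384464 and Bglap2 at 3:88377736-88378699 are neighbours on the minus strand. The last 100 bases of the Bglap and Bglap2 transcripts, the end that a 3′ library reads, are 100% identical, so counts of these copies cannot be told apart reliably. Those of the further copy Bglap3 are 98% identical to both. Cells are counted below by Bglap and Bglap2 together. Where UMIs are given for single copies, the split between the copies is not reliable.

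The counts went against the name Bglap Comp Ostn fibroblasts, since nearly all of the cells were chosen by Comp. Comp gave 1817 of the 2165 UMIs of the 4 genes in these cells, or 83.9%. It was present in 213 of the 216 cells, and 211 would have been chosen on Comp alone. Only 8 cells (3.70%) held a UMI of Bglap or Bglap2, 8 held Ostn, and 204 held none of these. They are therefore called Comp-rich cells here. These counts describe the choice and carry no test. The median cell held 6 Comp UMIs, from 6 in the quiescent library, 6 on day 1, 5 on day 2 and 6 on day 4 to 7 on day 14, and the richest held 73. The limit cut through a graded distribution: 39 cells held exactly 3 UMIs of the 4 genes, 118 of the other cells held 2, and 46 others had 3 or more UMIs but fell under the limit per 10000. Just inside that limit the lowest cells of the 5 libraries, quiescent to day 14, had 6.32, 4.47, 4.37, 4.14 and 4.8 UMIs per 10000. Just outside it the highest cells had 3.55 on day 1, 3.68 on day 2, 3.72 on day 4 and 3.96 on day 14, with no such cell in the quiescent library.

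**Figure D1:**
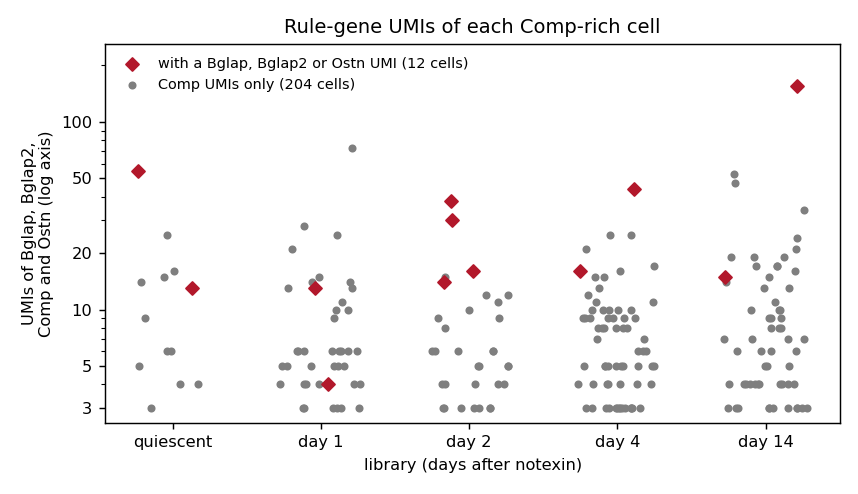
UMIs of Bglap, Bglap2, Comp and Ostn together (log axis) in each of the 216 Comp-rich cells, by library. Diamonds mark the 12 cells with a UMI of Bglap, Bglap2 or Ostn and grey points the 204 cells with Comp alone; the highest cell is a day 14 cell with 58 Bglap and 59 Bglap2 UMIs.

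The 12 cells with Bglap, Bglap2 or Ostn were spread over all 5 libraries, with 2 in the quiescent library, 2 on day 1, 4 on day 2, 2 on day 4 and 2 on day 14. A few of them held nearly all osteocalcin UMIs. The day 14 cell richest in them had 58 Bglap, 59 Bglap2, 24 Bglap3 and 30 Ostn UMIs, with 7 UMIs of Dlx5, an osteoblast transcription factor, and 8 of Alpl, the tissue non-specific alkaline phosphatase of mineralizing cells. A quiescent cell had 28 Bglap, 20 Bglap2 and 7 Ostn UMIs with 17 of Mmp13, a collagenase of osteoblasts and hypertrophic chondrocytes, and 4 of Ibsp, bone sialoprotein. Of the day 2 cells, 1 held 37 Ostn UMIs with 132 of Spp1, osteopontin, and 12 of Alpl, and another held 21 Ostn UMIs with 24 of Ibsp and 15 of Alpl. None of these 4 cells held a Pdgfra UMI, and the first 2 held no Gdf10 UMI. Other bone genes were at 0: Ibsp, Spp1, Sp7 and Mmp13 in the day 14 cell and Spp1 and Sp7 in the quiescent cell. Ibsp was at 0 in the cell with 37 Ostn UMIs. A day 4 cell with 9 Bglap and 26 Bglap2 UMIs had 1 of Alpl and none of Dlx5, Runx2, Ibsp or Spp1. Cells with 12 Ostn UMIs on day 14, 8 on day 2 and 15 on day 4 each held 1 Pdgfra UMI. Cells with many osteocalcin UMIs were also among the excluded tendon cells, for example a quiescent cell with 77 Bglap, 45 Bglap2, 34 Spp1 and 12 Ibsp UMIs and a day 14 cell with 43 Bglap and 20 Bglap2 UMIs. Among the other 14861 cells, 15 held a Bglap or Bglap2 UMI and 4 held Ostn, against 10 and 13 of the 1400 excluded tendon cells.

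Whether the 4 genes go together was asked by choosing non-excluded cells on 1 gene at a time. Cells with at least 2 UMIs of Bglap and Bglap2 numbered 1 in the quiescent library, 2 on day 1, 0 on day 2, 1 on day 4 and 3 on day 14, and those with at least 2 of Ostn were as few, so no test over libraries was possible for either. Cells with at least 3 Comp UMIs numbered 12, 47, 45, 89 and 63 in the same order. Against the remaining cells their Gdf10 was higher by a log2 fold change of 2.47 (SE 0.20, edgeR adjusted p = 3.73e-10), and Bglap, Bglap2 and Ostn had too few counts to be tested. Gdf10 was thus higher in cells chosen by Comp, while osteocalcin and osteocrin were too rare to be read. Whether the 4 genes go together therefore could not be tested, since Gdf10 is not 1 of them. The cells chosen by Comp include 211 of the 216 Comp-rich cells, so the Gdf10 result is largely the same as that of the Comp-rich cells.

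The share of Comp-rich cells among non-excluded cells was 0.684% in the quiescent library (13 of 1900, Clopper-Pearson 95% interval 0.365 to 1.17%), 0.926% on day 1 (42 of 4536, 0.668 to 1.25%), 1.37% on day 2 (33 of 2407, 0.946 to 1.92%), 1.76% on day 4 (67 of 3810, 1.37 to 2.23%) and 2.52% on day 14 (61 of 2424, 1.93 to 3.22%). The intervals cover counting error only, and with 1 library a day the order has no replicate check. A fixed UMI limit depends on depth, and the median depth of the other cells was 3873, 8838, 11239, 7083 and 4942 UMIs in the same order. When each cell was thinned to 2500 UMIs the shares were 0.728, 0.425, 0.623, 0.801 and 1.73%. The quiescent to day 4 shares then overlapped in their intervals and day 14 (1.21 to 2.39%) lay above those of days 1, 2 and 4. The day 14 interval overlapped that of the quiescent library (0.364 to 1.30%). The thinning left out 390 shallow quiescent cells, 65 on day 1, 0 on day 2, 63 on day 4 and 398 on day 14. Excluded mural cells should lack Comp and were read as a level for free RNA. From the quiescent library to day 4, 0 of 112, 97, 43 and 115 met the limit, which allows shares of up to 2.68, 3.09, 6.98 and 2.61%. On day 14, 3 of 247 (1.21%, interval 0.251 to 3.51%) did. The 40 Comp UMIs of the day 14 mural cells lay in 4 cells. Cells that also met the tendon limit are counted as mural here, so the day 14 share may include tendon cells and need not be free RNA. The mural cells were shallower than the other cells in every library (medians 1427, 3028, 5816, 4067 and 2814 UMIs), and these limits and the day 14 interval reach above the Comp-rich shares, so the shares cannot be set apart from this background by mural cells alone. Of excluded tendon cells, 30.2, 27.9, 33.0, 16.9 and 24.4% met the limit.

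**Figure D2:**
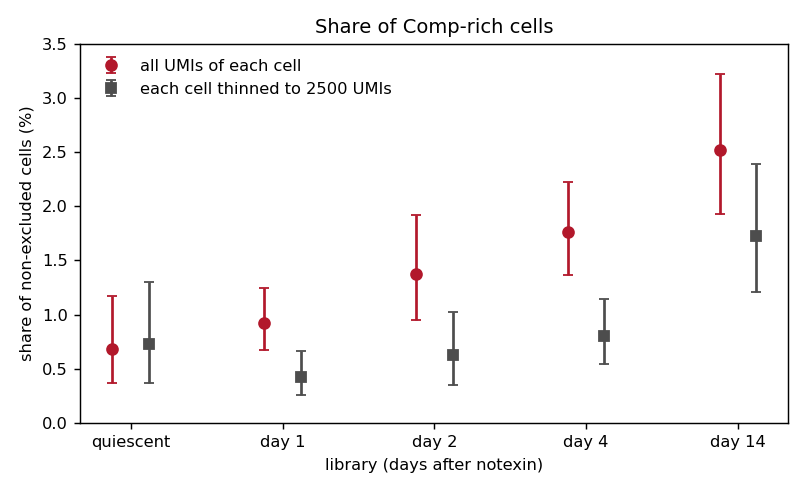
Share of Comp-rich cells among non-excluded cells (y axis, percent) in the 5 libraries, with all UMIs (circles) and after thinning each cell to 2500 UMIs (squares); bars are 95% Clopper-Pearson intervals for counting error. With all UMIs the shares run between 0.684 and 2.52%, and after thinning the day 1 to day 4 shares lie between 0.425 and 0.801%, under the 1.73% of day 14.

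Depth and identity of the cells were as follows. Median depth of Comp-rich cells was 4631, 5654, 5685, 6041 and 4666 UMIs from the quiescent library to day 14, and their median mitochondrial share was 2.91, 2.42, 2.89, 3.05 and 2.42%, against 2.58, 1.74, 2.23, 2.55 and 2.22% in other cells. Their summed counts ran from 66994 UMIs in the 13 quiescent cells to 488689 on day 4, so values of the quiescent cells are the least precise. The lineage label tdTomato had at least 1 UMI in 97.2% of Comp-rich cells and 97.9% of others. Hic1, the repressor that gives the lineage its name, was detected in 26 of the 216 Comp-rich cells and in 15.5% of others. Pdgfra, the receptor that marks fibro-adipogenic progenitors, was detected in 63.9% of Comp-rich cells, against 70.6% of other cells, 16.9% of excluded tendon cells and 8.96% of excluded mural cells. As levels in CPM, UMI counts scaled to the same total in every class sum of a library, Pdgfra was 313, 213, 222, 196 and 218 in Comp-rich cells from the quiescent library to day 14 and 318, 235, 216, 189.8 and 253 in other cells. None of tdTomato, Hic1 and Pdgfra passed the test between the classes (edgeR adjusted p = 0.924, 0.724 and 0.819). Barcodes shared by libraries numbered 154 of 17059, and 2 Comp-rich cells had such a barcode.

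Gdf10 and tendon genes varied among the Comp-rich cells. Gdf10 was detected in 94 of them (43.5%), in 23.1, 28.6, 54.5, 34.3 and 62.3% from the quiescent library to day 14, against 9.82% of all other cells. Thbs4, the thrombospondin of tendon and muscle, was detected in 82. Both were present in 25 cells, Gdf10 alone in 69, Thbs4 alone in 57 and neither in 65. A UMI of Tnmd, Fmod, Kera or Chad, under the limit for exclusion, was present in 65 Comp-rich cells (30.1%) against 10.5% of the others, and 38 Comp-rich cells had at least 2. Of the 65, 25 also had Gdf10 and 39 had Pdgfra, and of the 151 without a tendon gene 99 (65.6%) had Pdgfra. Tnmd had 89.6, 57.8, 43.6, 36.8 and 70.5 CPM in Comp-rich cells and 14.6, 3.18, 6.75, 9.43 and 35.8 CPM in other cells, and Fmod 14.9, 36.2, 43.6, 28.6 and 51.3 CPM against 9.11, 1.79, 3.02, 12.1 and 27.3 CPM, both higher in 5 of 5 libraries. Since these genes decided which cells were left out, they are given with no test.

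Against the other cells of the same libraries, Comp-rich cells had more RNA of Clu, Cyp2f2, Gdf10 and several complement genes and less of the genes of Pi16 and Dpp4 progenitors. Of 10490 genes tested in edgeR with library as a block, 279 (2.66%) were higher and 214 (2.04%) lower at an adjusted p below 0.05, with Bglap, Bglap2, Comp and Ostn left out. In sums over sorted cells, more cells with a gene and more RNA of it per cell cannot be told apart. The counts of lower genes moved with single libraries: 130 without day 14, 140 without the quiescent library and 372 without day 4. Without the library block, only 32 were higher and 6 lower.

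Gdf10 was higher in Comp-rich cells in 5 of 5 libraries, with 59.7, 79.5, 209, 75.7 and 391 CPM from the quiescent library to day 14 against 38.7, 10.9, 28.4, 13.02 and 50.6 CPM in others (log2 fold change 2.57, SE 0.23, edgeR adjusted p = 1.95e-09). The quiescent value rests on 4 UMIs, and the 95% counting interval of its ratio (0.418 to 4.0) includes 1, while the intervals of the other libraries lie above 1. Clu, the secreted chaperone clusterin, had 89.6, 159, 109, 264 and 218 CPM against 58.0, 10.9, 8.75, 17.4 and 26.9 CPM (log2 fold change 3.20, SE 0.28, edgeR adjusted p = 8.3e-10). Cyp2f2, a cytochrome P450, had 14.9, 32.5, 126, 75.7 and 44.9 CPM against 5.11, 2.85, 8.05, 9.33 and 11.6 CPM (log2 fold change 3.02, SE 0.32, edgeR adjusted p = 3.25e-08). The quiescent Clu and Cyp2f2 values rest on 6 UMIs and 1 UMI, with intervals of the ratio of 0.564 to 3.39 and 0.072 to 17.3. All 3 genes of the Clu, Cyp2f2 and Gdf10 list rose in Comp-rich cells, and they did so in each fit that left out 1 library. That list was drawn from earlier results on these libraries, so its direction is not independent evidence.

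**Figure D3:**
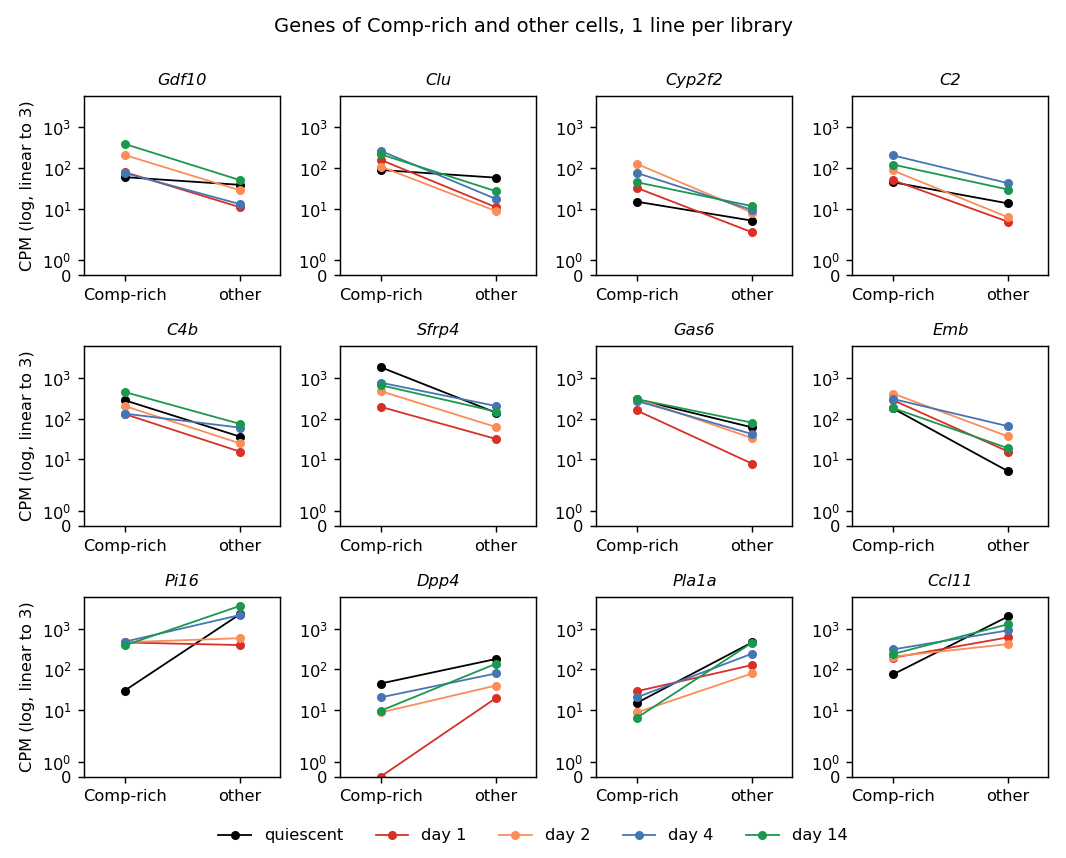
Summed level (CPM, log axis that is linear up to 3) of 12 genes in Comp-rich cells (left of each panel) and other non-excluded cells (right), with 1 line for each of the 5 libraries. Gdf10, Clu, Cyp2f2, C2, C4b, Sfrp4, Gas6 and Emb lie higher in Comp-rich cells in 5 of 5 libraries, and Dpp4, Pla1a and Ccl11 lower in 5 of 5; Pi16 lies slightly higher in Comp-rich cells on day 1.

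Complement genes were among the largest differences. C4b, the classical pathway component, had 284, 130.1, 205, 133 and 452 CPM in Comp-rich cells and 36.3, 15.5, 24.8, 60.4 and 74.5 CPM in others (log2 fold change 2.46, SE 0.22, edgeR adjusted p = 1.98e-09). Of 10 complement genes tested, 5 were higher, among them C2, C4b, Cfb and Serping1, and 1 lower (Cd55), with a median log2 fold change of 0.82 beside -0.12 over all genes. C2 had 44.8, 50.6, 87.2, 205 and 122 CPM against 13.5, 4.79, 6.18, 42.4 and 29.7 CPM (log2 fold change 2.61, SE 0.26, edgeR adjusted p = 9.82e-09). Gas6, the vitamin K-dependent ligand of the Axl receptor family, had 299, 159, 309, 272 and 301 CPM against 61.2, 7.88, 33.5, 41.9 and 79.9 CPM (log2 fold change 2.81, SE 0.23, edgeR adjusted p = 2.89e-10). Of 8 genes of vitamin K-dependent proteins and their enzymes tested, Gas6 and Mgp, matrix Gla protein, were higher and none lower. Mgp had a log2 fold change of 1.39 (edgeR adjusted p = 0.000125).

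Other genes of large difference were all higher in at least 4 of 5 libraries. Emb, the adhesion protein embigin, had 179, 286, 414, 305 and 183 CPM in Comp-rich cells and 5.11, 15.6, 36.5, 65.2 and 18.8 CPM in others (log2 fold change 3.41, SE 0.24, edgeR adjusted p = 3.69e-11). Crabp2, a carrier of retinoic acid, had 74.6, 39.8, 34.9, 104 and 44.9 CPM against 2.62, 1.16, 3.47, 9.03 and 5.02 CPM (log2 fold change 3.78, SE 0.34, edgeR adjusted p = 1.98e-09). Cpxm2, a carboxypeptidase-like protein, and Clec11a, a bone growth factor also called osteolectin, had log2 fold changes of 3.23 and 2.80 (edgeR adjusted p = 2.73e-10 and 2.25e-10). Gng8, a G protein gamma subunit, had a log2 fold change of 2.67 (edgeR adjusted p = 8.7e-08). Ptn, the heparin-binding growth factor pleiotrophin, had 612, 72.3, 649, 338 and 247 CPM against 35.5, 2.66, 20.9, 149 and 32.5 CPM (log2 fold change 3.44, SE 0.33, edgeR adjusted p = 8.44e-09), and 210 of its 452 UMIs came from the 12 cells with Bglap, Bglap2 or Ostn. Mmp13 had the largest fold change among genes of at least 50 CPM (log2 7.88, SE 0.72, edgeR adjusted p = 2.88e-09), yet its 501 UMIs lay in 7 cells, 316 of them in 1 cell. Lcn2, the iron carrier lipocalin 2, was at 0 in the quiescent Comp-rich cells and had 192, 17.4, 59.3 and 3.21 CPM on days 1, 2, 4 and 14, against 0.69, 12.2, 11.3, 6.53 and 0.577 CPM in others from the quiescent library to day 14 (log2 fold change 2.89, SE 0.39, edgeR adjusted p = 3.83e-06). The unnamed transcript 1500015O10Rik, chosen after its values were seen, had 418, 311, 423, 591 and 362 CPM against 9.39, 2.97, 16.9, 135 and 14.9 CPM (log2 fold change 4.58, SE 0.35, edgeR adjusted p = 1.16e-10).

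In the BMP pathway, in which secreted ligands and antagonists set the level of Id transcription factors, 7 of 23 genes tested were higher and 1 lower. The higher ones were the ligand Gdf10, the antagonist Chrdl1, the modulator Bmper, the targets Id1, Id2 and Id3 and the pseudoreceptor Bambi. Chrdl1 had 29.9, 72.3, 61.0, 53.2 and 44.9 CPM in Comp-rich cells and 8.15, 8.49, 13.8, 7.07 and 8.81 CPM in others (log2 fold change 2.55, SE 0.28, edgeR adjusted p = 8.7e-08). Id2 had 433, 249, 567, 252 and 462 CPM against 75.4, 75.3, 183, 96.5 and 129 CPM (log2 fold change 1.72, SE 0.17, edgeR adjusted p = 1.58e-08). Both were higher in 5 of 5 libraries, though the quiescent Chrdl1 value rests on 2 UMIs and the interval of its ratio (0.434 to 13.8) includes 1. Inhba, an activin subunit, was lower (log2 fold change -1.48, edgeR adjusted p = 0.0303), but did not pass without day 1, day 14 or the quiescent library. The list's median was 0.35. Of 14 TGF-beta genes, Tgfb1, Tgfb3, Ltbp3 and Tgfbi were higher and 2 lower, among them Tgfbr2, with a median of 0.05. Without day 1 2 were higher, without day 2 or the quiescent library none was lower, and Tgfb1 did not pass without day 1 (adjusted p = 0.0883).

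Secreted modulators of Wnt signalling were also among the higher genes. Of 11 genes of Wnt ligands, inhibitors and targets, 4 were higher, Sfrp1, Sfrp4, Dkk2 and Dkk3, all inhibitors or modulators outside the cell, and 1 lower, the ligand Wnt2, with a median of 1.10. Sfrp4 had 1836, 195, 475, 765 and 663 CPM in Comp-rich cells and 140.2, 31.8, 62.5, 205 and 149 CPM in others (log2 fold change 2.58, SE 0.20, edgeR adjusted p = 1.16e-10). Dkk2 had 567, 116, 170.0, 123 and 154 CPM against 78.7, 28.6, 35.8, 25.5 and 42.5 CPM (log2 fold change 2.18, SE 0.18, edgeR adjusted p = 5.07e-10). Both were highest in the quiescent Comp-rich cells. Dkk3 rose by a log2 fold change of 3.22 (edgeR adjusted p = 6.81e-06) and Sfrp1 by 2.54 (adjusted p = 8.44e-09). Of 11 IGF pathway genes, Igf1, Igfbp7 and Pappa were higher and none lower, with 1 higher without day 14 and 2 without day 2. Igf1 had 493, 343, 532, 689.6 and 506 CPM against 173, 84.9, 123, 307 and 219.9 CPM (log2 fold change 1.53, SE 0.18, edgeR adjusted p = 2.24e-07).

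Matrix genes split. Of 9 small leucine-rich proteoglycans, which bind collagen fibrils, 5 were higher (Bgn, Ogn, Podn, Aspn and Omd) and none lower, with a median of 0.79. Aspn, asporin, had 3418, 509.7, 1547, 1365 and 1285 CPM in Comp-rich cells and 474, 71.2, 473, 1464 and 704 CPM in others (log2 fold change 1.56, SE 0.25, edgeR adjusted p = 7.52e-05), and the day 4 values ran the other way. Of 16 elastic fibre genes, 5 were higher (Eln, Fbln1, Mfap2, Mfap4 and Lox) and 5 lower (Fbn1, Efemp1, Mfap5, Emilin2 and Loxl2). Fbln1, fibulin 1, had 194, 169.9, 170.0, 94.1 and 301 CPM against 42.1, 12.6, 16.9, 39.1 and 61.5 CPM (log2 fold change 2.51, SE 0.24, edgeR adjusted p = 8.44e-09). Of 21 collagen chains, Col1a1, Col8a2 and Col12a1 were higher and Col5a3 and Col15a1 lower. With the 12 cells with Bglap, Bglap2 or Ostn left out, Col12a1 was no longer called. When every cell with 1 UMI of a tendon gene was excluded, only Col8a2 was higher. Of 12 basement membrane genes, 5 were lower (Lamb1, Lamc1, Nid1, Hspg2 and Col15a1) and none higher, with a median of -0.72; without day 2 10 were lower, and without day 14 or the quiescent library 4. Hspg2, perlecan, had 104, 61.5, 69.7, 123 and 128 CPM against 465, 119.7, 122, 218 and 386 CPM (log2 fold change -1.26, SE 0.21, edgeR adjusted p = 9.65e-05). Among the partners and relatives of Comp, 3 of 11 were higher, Thbs4, Matn2 and Col12a1, and none lower. Without the quiescent library 1 was higher and without any other library 2. Thbs4 had 1149, 192, 257, 248 and 391 CPM against 175, 149, 54.5, 257 and 211 CPM (log2 fold change 1.13, SE 0.26, edgeR adjusted p = 0.00501), with the lower value in Comp-rich cells on day 4, and without the quiescent library it no longer passed (adjusted p = 0.103).

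**Figure D4:**
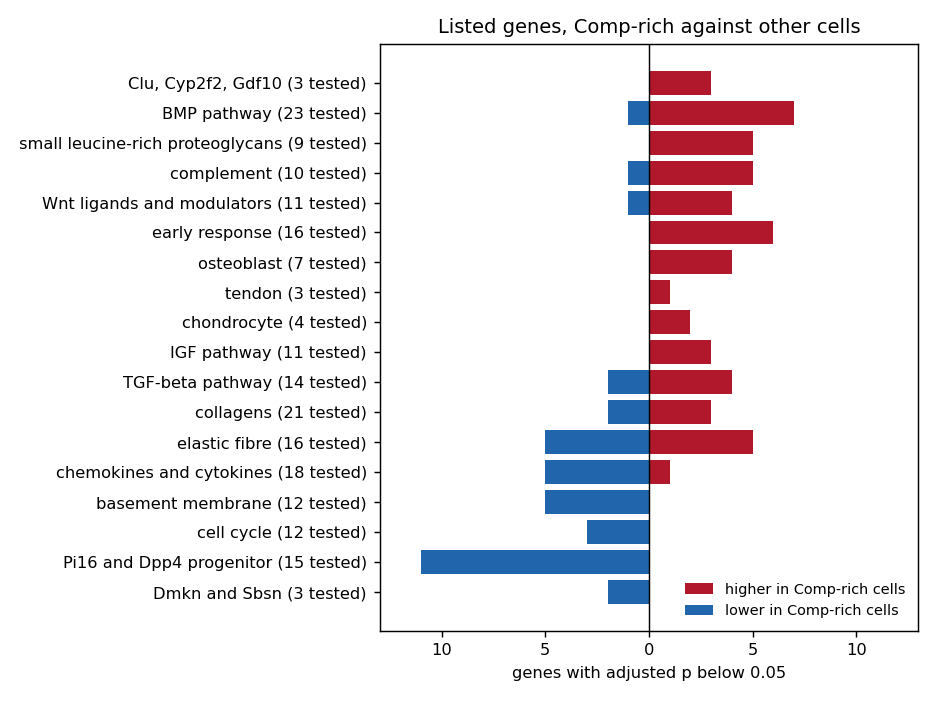
Number of genes of each list with an adjusted p below 0.05 that were higher (right) or lower (left) in Comp-rich cells than in other cells, with the number tested in brackets. The Pi16 and Dpp4 progenitor list has 11 lower of 15 tested, and the BMP list 7 higher of 23.

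Prg4, lubricin, the surface lubricant of joint lining and tendon, was the highest of the cartilage and joint genes, with 1045, 5129.9, 6124, 1039.5 and 163 CPM in Comp-rich cells and 155, 1518, 1302, 262 and 85.8 CPM in others (log2 fold change 1.87, SE 0.18, edgeR adjusted p = 8.27e-09). It was higher in 5 of 5 libraries, and both classes were highest on days 1 and 2. Of the 4 chondrocyte genes tested, of 21 on the list, Prg4 and Cilp were higher. Acan, Col2a1, Col9a1, Matn1, Hapln1 and Col10a1, which define cartilage, had no UMI in any Comp-rich cell, and Prg4 was the only synovial lining gene of 5 to pass, with Htra4, Clic5 and Tspan15 at 0. Of the tendon list, Scx, the tendon transcription factor, had 0 UMIs and Mkx 5 UMIs in 5 cells.

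The calls of osteoblast genes rested largely on few cells. Of 16 on the list, 7 had enough counts to test, and Dlx5, Alpl, Omd and Kazald1 were higher. Dlx5 had 14.9, 28.9, 39.2, 14.3 and 64.1 CPM in Comp-rich cells and 1.93, 0.472, 1.5, 1.29 and 2.14 CPM in others (log2 fold change 4.55, SE 0.44, edgeR adjusted p = 8.44e-09), with 24 of its 45 UMIs in the 12 cells with Bglap, Bglap2 or Ostn. Those cells also held 52 of the 59 Alpl UMIs and 131 of the 173 Omd UMIs. With the 12 cells left out, an alternative chosen after seeing the data, 1 of 6 genes tested, Kazald1, was higher, Alpl turned to a log2 fold change of -1.26 (adjusted p = 0.279) and Omd stood at 0.47 (adjusted p = 0.6). Dlx5 then had too few counts to test, and when every cell with 1 UMI of a tendon gene was excluded its log2 fold change was 1.83 (adjusted p = 0.474). Runx2, the regulator that starts the osteoblast programme, had 29.9, 14.5, 34.9, 16.4 and 19.2 CPM against 5.94, 9.29, 19.3, 27.8 and 6.26 CPM and did not pass (edgeR adjusted p = 0.603). Dmp1, Mepe and Dlx3 had no UMI in Comp-rich cells.

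The remaining lists held few called genes. Of 5 genes of the natriuretic peptide system tested, which holds the receptors that osteocrin acts on, none was higher and Npr1, the guanylyl cyclase receptor, was lower (log2 fold change -2.20, edgeR adjusted p = 0.00695). Npr3, the clearance receptor, had 14.9, 7.23, 4.36, 12.3 and 3.21 CPM in Comp-rich cells and 1.1, 4.41, 1.46, 1.45 and 1.32 CPM in others and did not pass the test (edgeR adjusted p = 0.0801). Without day 14 Npr1 did not pass. Of 11 genes of the Hsd11b1 and Cxcl14 fibroblasts, Apod and Penk were higher and Hsd11b1, Smoc2 and Col15a1 lower, with 5 higher and 1 lower without the quiescent library and 5 lower without day 2. Of 14 hindlimb position genes, Hoxa10 and Meox2 were higher and none lower. Of 12 lineage and progenitor genes, Prrx1 was higher and Cd34, Thy1 and Eng were lower, and of 18 proteases and inhibitors only Ctsk, cathepsin K, was higher and none lower, which is near the share of all genes that were higher; without day 14 or the quiescent library none was. Of 14 activated matrix genes, Lox and Tgfbi were higher and Acta2 lower.

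Genes of the Pi16 and Dpp4 progenitors, the adventitial type of tissue fibroblast, were lower: 11 of 15 tested fell and none rose, with a median log2 fold change of -1.65. Dpp4, a dipeptidase, had 44.8, 0, 8.72, 20.5 and 9.62 CPM in Comp-rich cells and 179, 19.7, 39.9, 79.0 and 137 CPM in others (log2 fold change -2.60, SE 0.32, edgeR adjusted p = 9.89e-07). Stmn4, a microtubule regulator, had 0, 3.62, 0, 6.14 and 0 CPM against 137, 3.35, 14.0, 47.5 and 142 CPM (log2 fold change -4.27, SE 0.54, edgeR adjusted p = 1.12e-06). Pi16 had 29.9, 456, 462, 475 and 385 CPM against 2246, 394, 579, 2146 and 3604 CPM (log2 fold change -1.90, SE 0.38, edgeR adjusted p = 0.00131), so that the classes were far apart in the quiescent library and on days 4 and 14 and close on days 1 and 2. Outside the list, Pla1a, a phospholipase, had 14.9, 28.9, 8.72, 20.5 and 6.41 CPM against 457, 127, 79.1, 242 and 449 CPM (log2 fold change -3.83, SE 0.32, edgeR adjusted p = 3.71e-10). Among genes of at least 50 CPM, Dmkn, dermokine, fell most, with 2 UMIs in 1 Comp-rich cell (log2 fold change -5.16, SE 0.54, edgeR adjusted p = 3.05e-08), and Sbsn, suprabasin, had a log2 fold change of -2.59 (edgeR adjusted p = 2.14e-08). Aldh1a3 (a retinaldehyde dehydrogenase), Vtn (vitronectin) and Saa3 (a serum amyloid protein) fell too, by log2 fold changes of -2.95, -2.52 and -4.44, and Saa3 and Stmn4 did not pass in DESeq2 (adjusted p = 0.779 and 0.0621).

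More chemokine genes fell than rose. Of 18 chemokine and cytokine genes tested, 5 fell (Cxcl5, Ccl2, Ccl8, Ccl11 and Il33) and 1 rose, Cxcl12, with a median of -0.74. Ccl11, the eosinophil attractant eotaxin, had 74.6, 192, 205, 307 and 237 CPM in Comp-rich cells and 1985, 609, 416, 902 and 1278 CPM in others (log2 fold change -2.08, SE 0.26, edgeR adjusted p = 1.07e-06). Ccl2, the monocyte attractant, had 119, 329, 479, 151 and 35.3 CPM against 143, 4277, 1583, 317 and 124 CPM (log2 fold change -1.96, SE 0.29, edgeR adjusted p = 2.06e-05), and both classes were highest on day 1 or 2. Cxcl5, a neutrophil attractant, had 0, 354, 34.9, 8.19 and 0 CPM against 0.138, 2858, 388, 16.2 and 0.247 CPM (log2 fold change -3.05, SE 0.31, edgeR adjusted p = 2.18e-08), and it did not pass in DESeq2 (adjusted p = 0.862). Cxcl12, which retains leukocytes and progenitors in tissue, had 552, 1956, 2179, 2083 and 2160.3 CPM against 446, 777, 1008, 876 and 818 CPM (log2 fold change 1.05, SE 0.17, edgeR adjusted p = 7.69e-05). Of 12 cell cycle genes, Rrm2, Mcm2 and Stmn1 were lower and none higher, and none of the 3 passed without day 2 (adjusted p = 0.452, 0.105 and 0.126).

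Of 16 early response genes, which cell dissociation also induces, 6 rose (Fos, Fosb, Jun, Junb, Egr1 and Nr4a1) and none fell, with a median of 0.49. Without day 14 only 2 rose, without day 2 or day 4 4, and without the quiescent library 7. Fosb had 537, 571, 418, 424 and 509.6 CPM in Comp-rich cells and 233, 164, 224, 185 and 160.2 CPM in others (log2 fold change 1.30, SE 0.17, edgeR adjusted p = 3.45e-06). The median mitochondrial share was also higher in Comp-rich cells in 5 of 5 libraries, as given above, and median depth lower from day 1 to day 14; their part in these results was not tested. Of the lists for other cell types, mural genes summed to 65.1 to 274 CPM in Comp-rich cells and 19.9 to 233 CPM in others over the 5 libraries, with Myh11 at 0 and Ndufa4l2 the 1 gene of 3 tested that was higher. Schwann cell genes summed to 21.7 to 235 CPM against 18.0 to 172 CPM, with Mbp and Sox10 at 0 and S100b the 1 gene of 3 tested that was higher. Perineurial genes summed to 52.3 to 135 CPM against 22.5 to 54.7 CPM, of which Crabp2 and Lypd2 were higher and 14 of the 19 Lypd2 UMIs came from 1 cell. Endothelial genes summed to 17.4 to 44.8 CPM against 17.9 to 122 CPM, with Kdr and Emcn at 0 and Tek lower. Immune genes summed to 0 to 18.4 CPM against 2.8 to 12.7 CPM, with Ptprc at 0. Myogenic genes summed to 0 to 38.5 CPM against 19.6 to 46.8 CPM, with Pax7, Myod1, Myf5 and Myog at 0. Muscle fibre genes summed to 13.1 to 67.3 CPM against 12.6 to 46.7 CPM, with Myh1 and Myh4 at 0. Red cell genes reached 3.62 CPM at most in Comp-rich cells. Adipocyte genes summed to 0 to 219 CPM against 4.28 to 18.6 CPM. The adipocyte gene Fabp4 was called higher, but 84 of its 91 UMIs came from 1 cell, and without day 4 its log2 fold change was -0.32 (adjusted p = 0.873).

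The most alike cells by Gdf10 and Cyp2f2 were 266 cells outside the Comp-rich class with at least 3 UMIs of these genes and at least 4 per 10000, at 29, 34, 66, 49 and 88 per library. Against them, with Cyp2f2 and Gdf10 also left out, 26 of 3449 genes tested (0.754%) were higher in Comp-rich cells and 10 (0.29%) lower. The higher ones were led by Ptn, Col8a1, Thbs4 and Omd. Ptn had 612, 72.3, 649, 338 and 247 CPM in Comp-rich cells and 108, 9.68, 45.6, 157 and 61.8 CPM in Cyp2f2 or Gdf10 cells (log2 fold change 2.34, SE 0.32, edgeR adjusted p = 0.00354). Col8a1, a short-chain collagen, had 89.6, 101, 379, 331 and 208 CPM against 9.78, 19.4, 36.9, 92.7 and 98.9 CPM (log2 fold change 2.10, SE 0.29, edgeR adjusted p = 0.00354). Thbs4 had 1149, 192, 257, 248 and 391 CPM against 39.1, 4.84, 31.6, 171 and 159 CPM (log2 fold change 2.08, SE 0.41, edgeR adjusted p = 0.0225). These 3 genes were higher in 5 of 5 libraries. Thbs4 did not pass without day 1 (adjusted p = 0.0688), day 14 (0.0860) or the quiescent library (0.0893). Omd, osteomodulin, had a log2 fold change of 1.93 (edgeR adjusted p = 0.0188) and did not pass without day 14 (adjusted p = 0.246), and Anxa8, Fibin, Cnn2 and Col12a1 ones of 1.71, 1.57, 1.49 and 1.42. Lower were Ccl11, with 74.6, 192, 205, 307 and 237 CPM against 626, 847, 358, 845 and 1004 CPM (log2 fold change -1.75, SE 0.21, edgeR adjusted p = 0.00175), and Fmo2, Ccl8, Nrep, Ms4a4d, Abca8a, Scara5 and Osr1, with log2 fold changes between -1.82 and -0.86. These counts moved with single libraries. Without day 14 there were 7 higher and 1 lower, without day 1 16 and 1, without the quiescent library 13 and 2, without day 4 the lower were 2 and without day 2 they were 17. Ptn, Col8a1 and Ccl11 passed in each of these fits.

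Against the 1400 excluded tendon cells, a comparison added after seeing the data, Comp-rich cells had more of the fibroblast genes C4b, Gdf10 and Cxcl12 and almost none of several tendon genes. With Tnmd, Fmod, Kera and Chad left out, 286 of 5110 genes (5.6%) were higher and 169 (3.31%) lower. These 4 genes split the classes, so differences in genes that go with them follow in part from the choice. The p-values here are therefore no independent evidence that the classes differ in tendon genes. C4b had 284, 130.1, 205, 133 and 452 CPM in Comp-rich cells and 7.91, 15.9, 10.7, 22.4 and 5.88 CPM in tendon cells (log2 fold change 4.23, SE 0.46, edgeR adjusted p = 8.32e-05). Gdf10 had 59.7, 79.5, 209, 75.7 and 391 CPM against 9.88, 11.1, 24.2, 9.2 and 7.06 CPM (log2 fold change 3.94, SE 0.43, edgeR adjusted p = 8.85e-05). Cxcl12 had 552, 1956, 2179, 2083 and 2160.3 CPM against 59.3, 202, 643, 508 and 133 CPM (log2 fold change 2.84, SE 0.28, edgeR adjusted p = 4.76e-05). Inmt, Osr1, Sned1, Ly6c1 and G0s2 were also higher, by log2 fold changes of 3.17, 2.90, 2.82, 2.78 and 2.72. Chodl, chondrolectin, had 0, 0, 0, 8.19 and 28.8 CPM in Comp-rich cells against 1512, 260.1, 315, 485 and 1813 CPM in tendon cells (log2 fold change -6.39, SE 0.31, edgeR adjusted p = 2.73e-07). Ptx4, a pentraxin, had 0, 0, 0, 12.3 and 0 CPM against 1009.9, 192, 192, 598 and 1196 CPM (log2 fold change -7.09, SE 0.43, edgeR adjusted p = 1.15e-06). Mkx, the tendon regulator, Wif1, Gas2, Fam101b and Col11a1 were lower by log2 fold changes of -4.51, -4.93, -5.39, -4.27 and -4.11, and Atp6v0a4 had no UMI in Comp-rich cells against 65.2, 24.2, 22.8, 35.5 and 113 CPM in tendon cells. Each of these genes passed in every fit that left out 1 library, except that Atp6v0a4 could be tested in 4 of those 5 fits. Comp itself was detected in 38.4% of tendon cells.

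**Figure D5:**
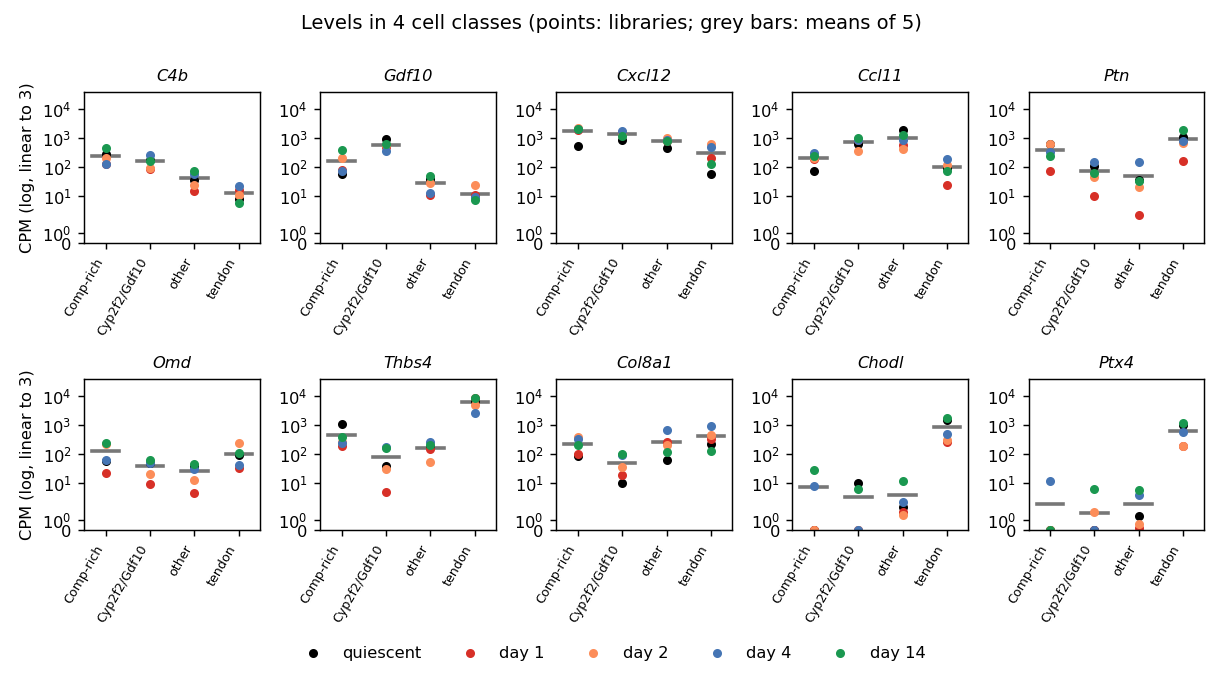
Summed level (CPM, log axis that is linear up to 3) of 10 genes in Comp-rich cells, Cyp2f2 or Gdf10 cells, other non-excluded cells and excluded tendon cells, with 1 point per library and a grey bar at the mean of 5. C4b, Gdf10 and Cxcl12 lie higher in Comp-rich than in tendon cells in 5 of 5 libraries, and Chodl and Ptx4 lower in 5 of 5. Gdf10 chose the Cyp2f2 or Gdf10 cells, so its level there is set by the choice. Tnmd, Fmod, Kera and Chad chose the tendon cells, so tendon genes that go with them differ in part by the choice.

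How alike the cells are was described by nearest neighbours in each library, computed without Bglap, Bglap2, Comp and Ostn. The tendon and mural genes that decided exclusion were not left out, nor were Cyp2f2 and Gdf10, which chose the Cyp2f2 or Gdf10 cells. Shares of neighbours from these classes, and of tendon cells in clusters, can therefore be set in part by the genes that define the classes. Of the 15 nearest neighbours of a Comp-rich cell, 13.8, 14.1, 13.9, 15.4 and 13.1% were Comp-rich from the quiescent library to day 14, while Comp-rich cells were 0.608, 0.872, 1.29, 1.63 and 1.76% of the cells of those libraries. Cyp2f2 or Gdf10 cells were 5.13, 7.3, 10.7, 7.16 and 17.0% of the neighbours, beside 1.36, 0.706, 2.59, 1.19 and 2.53% of the libraries. Excluded tendon cells were 6.67, 7.14, 12.3, 6.77 and 11.4%, beside 5.89, 3.8, 3.92, 4.46 and 23.3%, and 0, 2, 6, 2 and 6 Comp-rich cells had mostly tendon neighbours. Comp-rich cells thus lay near each other. They lay near Cyp2f2 or Gdf10 cells too, which can follow in part from the genes that chose those cells. Comp-rich cells formed no cluster of their own. In the quiescent library 10 of 13 fell in a cluster of 142 cells led by C4b and Gdf10, on day 4 33 of 67 fell in a cluster of 286 led by Clu, Inmt and Gdf10, and on day 14 27 of 61 fell in a cluster of 235 led by C4b and Sfrp1. A further day 14 cluster of 64 cells, led by Dlx5, Sfrp4 and Crabp2, held 14 Comp-rich cells and 57.8% tendon cells. On day 1 they were spread over 7 of 14 clusters, the fullest with 14 of the 42, and on day 2 over 5 of 13, the fullest with 19 of the 33. Of the day 2 cells, 7 fell in a cluster of 95 cells led by Fmod, Kera and Thbs4 of which 88.4% were tendon cells, and of the day 1 cells 6 fell in a cluster of 108 of which 55.6% were tendon cells. These clusters use the genes of the same cells and are a description with no test.

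Over the course of injury, Comp-rich cells of each day were set beside the 13 quiescent ones. These ratios carry no test, the 4 days share the quiescent cells, and 3 counts in the quiescent sum are worth 44.8 CPM. A gene was compared when its higher library had at least 50 CPM and 20 counts, and counted when the ratio was at least 2. Because 20 counts are a far higher level in the small quiescent sum than at any day, higher genes could be seen more easily than lower ones. On day 1, 531 of 1616 genes were higher (32.9%) and 107 lower (6.62%), on day 2 286 of 1291 (22.2%) and 83 (6.43%), on day 4 566 of 1969 (28.7%) and 63 (3.2%), and on day 14 324 of 1575 (20.6%) and 31 (1.97%). TMM and DESeq2 scaling moved the median log2 ratio up by 0.16 to 0.32, against medians of 0.64, 0.45, 0.53 and 0.36 over the genes compared on days 1, 2, 4 and 14. Ratios near 2 therefore depend on the scaling. Most genes that counted moved the same way in the other cells, by a change of any size. On days 1 and 2 these were 598 of 638 and 322 of 369. On days 4 and 14 they were 537 of 629 and 249 of 355.

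On day 1, Cxcl5 stood at 354 CPM in Comp-rich cells and at 0 in quiescent ones. The lower limit of the exact 95% interval of its ratio was 6.31. The other cells had 2858 CPM on day 1 and 0.138 CPM in the quiescent library. For each further gene at 0 in quiescent Comp-rich cells, the fold given is this lower limit. Dtymk, Lcn2, Il1rl1, Polr2j and Exosc8 were at 0 in quiescent Comp-rich cells too, and were at least 4.21, 3.36, 3.16, 2.57 and 2.24-fold higher on day 1. The other cells had 246, 12.2, 142, 124 and 119 CPM of these genes on day 1. Their quiescent levels there were 72.4, 0.69, 0.828, 105 and 42.0 CPM. Among the lower genes, Sfrp4 had 195 CPM on day 1 against 1836 CPM in quiescent Comp-rich cells (ratio 0.106, 95% interval 0.0757 to 0.148). Angptl1 had 86.8 CPM against 866 CPM (ratio 0.1, 0.0595 to 0.164), and Ptn 72.3 CPM against 612 CPM. Sfrp2, Ctsh and Fhl1 were lower as well, at 3.62 CPM, 21.7 CPM and 32.5 CPM against 313 CPM each. All of these lower genes fell in the other cells too. Sfrp4, Angptl1 and Ptn had 31.8, 22.5 and 2.66 CPM there on day 1 against 140.2, 441 and 35.5 CPM in the quiescent library. Sfrp2, Ctsh and Fhl1 had 3.16, 32.4 and 25.2 CPM there against 44.2, 202 and 214 CPM. Collagen genes summed to 8785 CPM in Comp-rich cells on day 1 against 29540 CPM in quiescent ones, and to 4260.0 CPM against 18029 CPM in the other cells of those libraries. Chemokine and cytokine genes summed to 6171 CPM in Comp-rich cells on day 1 against 1627 CPM in quiescent ones, and to 15645 CPM against 3869 CPM in other cells. Levels are summed for the lists here because the count minimum lets a gene that is low in the quiescent cells enter only through a day on which it is high.

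On day 2, Spp1 stood at 2005 CPM in Comp-rich cells and at 0 in quiescent ones, at least 44.8-fold higher against the floor. Of its 460 UMIs in Comp-rich cells on day 2, 292 lay in 1 cell and 132 in the cell with 37 Ostn UMIs, so this level rests mostly on these cells. Over all 5 libraries, 25 Comp-rich cells held its 680 UMIs. Cxcl2, Slc10a6, H19, Cyp51 and Sept4 were at least 2.79, 2.55, 2.39, 2.15 and 2.07-fold higher. The other cells had 122, 53.8, 40.7, 147 and 66.8 CPM of these genes on day 2. Their quiescent levels there were 9.39, 19.3, 12.4, 30.8 and 32.7 CPM. Lower were Nbl1, AY036118, Clta, Aebp1, Sod3 and Sfrp2, with ratios of 0.0762, 0.141, 0.158, 0.165, 0.173 and 0.181. Except for Sfrp2, these genes fell in the other cells too. Nbl1, AY036118, Clta, Aebp1 and Sod3 had 28.7, 166, 100.0, 182 and 100.0 CPM there on day 2. Their quiescent levels there were 105, 1025, 298, 562 and 187 CPM. Sfrp2 had 96.7 CPM there on day 2 against 44.2 CPM in the quiescent library. The log2 ratio of Sfrp2, -2.45, turned to 0.24 when cells with at least 2 UMIs of the tendon genes were left out. Aebp1, a collagen-binding protein, had 209 CPM on day 2 against 1269 CPM in quiescent Comp-rich cells. Early response genes summed to 10243 CPM in Comp-rich cells on day 2 against 13404 CPM in quiescent ones, and chemokine and cytokine genes to 7249 CPM against 1627 CPM. In the other cells the sums were 5605 CPM against 11708 CPM for early response genes and 8384 CPM against 3869 CPM for chemokine and cytokine genes.

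On day 4, H19, the imprinted transcript of growing tissue, had 495 CPM in Comp-rich cells and 0 in quiescent ones (at least 8.93-fold). The other cells of that day had 396 CPM. Fabp5, a fatty acid carrier, had 299 CPM (at least 5.36-fold), and Spon2, Plac8 and Isg15 were at least 4.02, 3.43 and 3.35-fold higher. In the quiescent library the other cells had 9.67, 82.4, 65.0 and 24.9 CPM of Fabp5, Spon2, Plac8 and Isg15. On day 4 they had 40.4, 160, 254 and 300 CPM. The Fabp4 of that day, 172 CPM, is nearly all from the single cell named above. Cell cycle genes summed to 557 CPM in Comp-rich cells on day 4 against 74.6 CPM, from 5 UMIs, in quiescent ones, and to 551 CPM against 75.1 CPM in the other cells. Activated matrix genes summed to 4557 CPM in Comp-rich cells on day 4 against 3089.8 CPM in quiescent ones, and elastic fibre genes to 6806 CPM against 3762 CPM. In the other cells activated matrix genes summed to 9993 CPM against 1657 CPM, a larger rise, and elastic fibre genes to 8672 CPM against 6956 CPM. Pcolce2, Ier2, Plpp3, Thbs4, Prss23 and Dkk2 were lower, with ratios of 0.109, 0.12, 0.18, 0.215, 0.216 and 0.216. In the other cells Thbs4 had 257 CPM on day 4 and 175 CPM in the quiescent library. The rest of these lower genes fell in the other cells too. Pcolce2, Ier2, Plpp3, Prss23 and Dkk2 had 96.6, 64.0, 260, 195 and 25.5 CPM there on day 4. Their quiescent levels there were 578, 620, 1321, 459 and 78.7 CPM.

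On day 14, Gdf10 of Comp-rich cells was 391 CPM against 59.7 CPM in quiescent ones (ratio 6.55, 95% interval 2.49 to 24.4), from 122 and 4 counts. In the other cells it was 50.6 CPM on day 14 and 38.7 CPM in the quiescent library. On days 1, 2 and 4 its ratios were 1.33, 3.5 and 1.27, with lower bounds of 0.452, 1.28 and 0.456. Spp1, Spon2, Nmb, Polr2j, Crabp1 and Angptl7 were at 0 in quiescent Comp-rich cells. By the lower 95% limits they were at least 10.1, 3.5, 2.69, 2.57, 2.57 and 1.82-fold higher on day 14. In the other cells these genes had 2.55, 146, 133, 122, 0.906 and 39.6 CPM on day 14. The quiescent levels there were 0.276, 82.4, 128, 105, 1.52 and 22.6 CPM. Prg4 had 163 CPM on day 14 against 1045 CPM (ratio 0.156, 0.107 to 0.228), and Ctsh, Dkk2, Sod3, Thbs4 and Anxa3 had ratios of 0.215, 0.271, 0.336, 0.34 and 0.349. In the other cells Prg4, Ctsh, Dkk2 and Sod3 were lower on day 14 as well. They had 85.8, 148, 42.5 and 156 CPM there against 155, 202, 78.7 and 187 CPM. Thbs4 and Anxa3 were higher there, at 211 and 950 CPM against 175 and 825 CPM. In Comp-rich cells, Thbs4, Sfrp4 and Dkk2 were thus lower than in quiescent ones on all 4 days. The ratios for Thbs4 were 0.167, 0.224, 0.215 and 0.34. The quiescent values behind this rest on 13 cells. In the other cells Dkk2 was also lower on all 4 days. Thbs4 and Sfrp4 were lower there on days 1 and 2 and higher on days 4 and 14.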

How the data were processed

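The authors deposited whole-number UMI counts per gene and cell barcode for 5 Chromium 3′ (v2) libraries, 1 per time point, made with Cell Ranger on mm10 per the submitters' processing notes; their versions were not given in the sources used here. Library totals ran from 8043771 to 44552329 UMIs over 17213 barcodes. Counts were summed per library and class and tested in edgeR 4.0.16 (R 4.3.3; quasi-likelihood, filterByExpr, TMM, library as block, Benjamini-Hochberg adjusted p below 0.05), with SE taken as the log2 fold change over the square root of F. Labels do not say that libraries are independent replicates, so p-values measure the spread between these libraries. CPM are counts scaled by the total of the class sum. Days were compared by CPM ratios with exact counting intervals (95%), log2 ratios with 1 CPM added. Scrublet called 12 cells (0.0702%), too few to have worked, so no doublets were removed; an alternative removed 507 cells by score. Intervals cover counting error only. Neighbours came from 2000 variable genes and 30 components (scanpy 1.11.5). Scripts were tested on simulated data.

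The members, lists and tests were chosen with earlier results of these data known. Named genes were the 15 highest and 10 lowest called genes of at least 50 CPM against other cells, 8 each way against Cyp2f2 or Gdf10 cells and, by the same rule, tendon cells, 6 each way per day, and up to 4 called genes per list; further genes in the text were chosen after their values were seen, and a few genes under these rules are not reported here. Alternatives covered limits, tendon exclusion, depth, doublets, scaling, DESeq2 1.42.0, filters, the library block and leaving out each library.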

Additional observations from a re-analysis of the deposited data

Results flagged for a closer look

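The difference between Comp-rich and other cells pointed opposite ways in different libraries for 11 genes, each with at least a 2-fold gap both ways. These gaps between libraries were not tested, and each rests on 1 library a day. As log2 ratios of Comp-rich over other cells, Spp1 stood at 7.31 at day 14 and -5.34 at day 4, from 176 and 26 UMIs. The cell with 292 of its 680 Comp-rich UMIs is of day 2 and does not enter these values. The BMP ligand Bmp4 stood at 2.44 at day 2 and -2.86 in the quiescent library, from 19 UMIs and 1 UMI; the 95% counting interval of the quiescent ratio is 0.0033 to 0.729. G0s2, a lipase inhibitor, stood at 2.73 at day 4 and -2.76 in the quiescent library (3 UMIs, interval of the ratio 0.0299 to 0.424), and Lpl, lipoprotein lipase, at 1.10 and -2.37 in the same libraries (7 quiescent UMIs, 0.0771 to 0.395). The chemokine Cxcl13 stood at 1.06 at day 14, from 27 UMIs, and -6.97 at day 2, where Comp-rich cells held 0 UMIs, so that this value is set by the added 1 CPM and only the upper limit of the ratio, 0.129, can be given. The protease inhibitor Timp1 stood at 1.75 at day 14 and -1.72 at day 2. Tnc, tenascin C, stood at 1.54 at day 2 and -2.63 at day 4, and Ncam1 at 1.23 and -1.19, from 12 to 15 UMIs each. Thbs2 stood at 1.26 in the quiescent library and -1.26 at day 4. Igfbp5 stood at 1.07 at day 1 and -1.31 at day 14. The cell cycle gene Ube2c stood at 1.53 at day 4, from 39 UMIs, and -6.37 at day 2, where Comp-rich cells again held 0 UMIs and the upper limit of the ratio is 0.196.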

How the results depend on the processing

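Shares of Comp-rich cells moved most with the choice of genes and depth. With a Bglap or Bglap2 UMI required they were 0.105, 0.0441, 0.0831, 0.0262 and 0.0413% from the quiescent library to day 14. With at least 5 UMIs they were 0.617, 0.872, 1.21 and 1.61% at days 1, 2, 4 and 14. Thinned to 2500 UMIs, with 3 of these required, they were 0.425, 0.623, 0.801 and 1.73%. At a limit of 2 UMIs they were 1.16 and 1.08% for the quiescent and day 1 libraries, and at a common depth limit of 3647 UMIs 1.04, 0.868 and 2.58% for the quiescent, day 1 and day 14 libraries, both of which turn the order of the quiescent library and day 1. Against other cells, genes higher numbered 32 and lower 6 without the library block. Lower genes numbered 81 in DESeq2, 342 with other cells weighted by depth and 424 with no filter. Leaving out 1 library gave 232 to 294 higher and 130 to 372 lower. In the lists, beside the changes given with them, the called genes moved from the reported counts as follows. Higher genes of the elastic fibre list numbered 3 without day 2, of the chemokine list 2 without day 1 or the quiescent library, of the activated matrix list 4 without day 4, of the hindlimb list 1 without day 14 and of the perineurial list 1 without day 1, day 14 or the quiescent library. The 1 higher gene of the tendon list did not pass without the quiescent library, that of the lineage list not without day 14 or the quiescent library and that of the mural list not without day 2 or the quiescent library. Lower collagens numbered 4 without day 2 or day 4 and 1 without day 14 or the quiescent library, lower chemokine genes 8 without day 4, lower cell cycle genes 7 without day 4 and 5 without day 1, lower activated matrix genes 2 without day 4 or day 14, lower lineage genes 1 without day 14, and lower BMP genes 3 without day 2. A lower gene appeared among the proteases without day 1 or day 14, the Comp partners without day 2 or day 4 and the myogenic genes without day 1 or day 2. Against Cyp2f2 or Gdf10 cells, no filter gave 95 higher and 36 lower, and leaving out 1 library 7 to 31 and 1 to 17. Alpl turned to -1.26 without the 12 Bglap or Ostn cells and -0.83 at a tendon limit of 1 UMI. Fabp4 turned to -0.0090 in DESeq2, and leaving out 1 library gave -0.32 to 2.74. tdTomato, not called, turned to 0.00183 with DESeq2 size factors, 0.00161 in DESeq2, and leaving out 1 library gave -0.12 to 0.033. Sfrp2 at day 2 turned to 0.24 at a tendon limit of 2 UMIs. With 20 CPM and no count minimum, higher and lower genes were 1387 and 1771 at day 1, 1305 and 1642 at day 2, 1366 and 1407 at day 4, and 1166 and 1150 at day 14. TMM gave 900 and 38 at day 4 and 16 lower at day 14, where DESeq2 size factors gave 19. Causes were not tested. No paired analysis was possible because each day is 1 library; the pairing used is of classes within a library. Day comparisons and class tests with Bglap required were not run, for want of cells. The 13 quiescent cells, with 66994 UMIs, limit all day ratios.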
